A study of Mus musculus with 12 samples.

Results

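Mouse hippocampal slice cultures exposed to DIDS for 2 h were compared with cultures that were not, whatever solution the slices were kept in. The members were chosen by their titles. An array entered the group with DIDS when every title it was deposited under names DIDS, and the group without DIDS when no title does. This gave 3 arrays with DIDS and 5 without, 8 of the 9 distinct arrays that the 12 deposited scanner files hold.

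The cultures came from C57BL/6J mice of mixed gender, and all samples are organotypic hippocampal slices, that is, thin slices of hippocampus that keep their neurons, glia and local circuits in culture. The bath for these 2 h was either artificial cerebrospinal fluid (ACSF) or an ischemic solution (IS), and DIDS was added to some slices in both. Total RNA was hybridized to Illumina mouse whole-genome bead arrays. By their titles the groups are Control ACSF, IS, ACSF + DIDS and IS + DIDS, with 3 samples each. The labels give no DIDS concentration, and they do not say how many animals or cultures a sample pools or whether samples of a group came from separate cultures, so p-values measure only the spread between these samples. In such bulk RNA, fewer cells of a type and less RNA per cell cannot be told apart.

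DIDS is a disulfonic stilbene that reacts with amino groups on the outside of cells and inhibits chloride-bicarbonate exchangers, sodium-coupled bicarbonate transporters and several chloride channels. In brain tissue these proteins set intracellular pH and chloride and let cells release volume when they swell. Slices deprived of oxygen and glucose switch on immediate early genes, which code for transcription factors and need no new protein for their induction, and then chemokines and other genes of innate inflammation, many of them under NF-kB, C/EBP and interferon regulatory factors.

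Several files repeat each other. Among the scanner files, ACSF + DIDS 1 equals IS + DIDS 2, IS + DIDS 1 equals IS + DIDS 3, and IS 2 equals ACSF + DIDS 3, and the last of these arrays, which carries a title with and a title without DIDS, was left out of the 8-array comparison. The authors' deposited table of normalized values has 12 columns that all differ. In 9 columns the log2 values correlated with 1 scanner file at 0.997343 or more. The columns IS 2, ACSF + DIDS 1 and IS + DIDS 1 matched no scanner file and correlated with the file of their own title at only 0.985729 to 0.991057. The repeated arrays matched the columns IS + DIDS 2, IS + DIDS 3 and ACSF + DIDS 3. The array with mixed titles is thus counted as DIDS in all results from the table, though it was also filed as IS 2. Its DIDS status there rests on the column title alone. The table therefore gives 6 columns with DIDS and 6 without, and a comparison of these, chosen after the data were seen and called here the value table comparison, is given beside the 8-array comparison. The description of ACSF + DIDS 2 names IS in place of ACSF, which leaves its DIDS status as it is.

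Control ACSF 1, Control ACSF 2 and IS 1 lay on 1 chip and the other matched arrays, all those with DIDS among them, on another. The chip of the 3 unmatched columns is not given in the sources used here. With chip as a term, the DIDS difference of the 8 arrays rests on chip 2, which holds 3 arrays with DIDS and 2 without, and the arrays of chip 1 add only to the estimate of spread. Probes detected per array ran from 15291 to 16614, and the median raw signal from 69.5 to 83.6 except for 131.9 on IS 1. In the value table the column IS + DIDS 1 stood apart, with a median correlation of 0.984078 with the other columns, so its effect is given where results rest on it.

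On the 8 arrays, 0 of 16607 probes passed an adjusted p of 0.05 (limma with Benjamini-Hochberg adjustment), so percent called was 0, and the smallest adjusted p was 0.236. Before adjustment, 2103 probes had a p under 0.05, 12.7% of those tested, and 830 would have it by chance. The genes below have the smallest p on these arrays and did not pass. All log2 values from the arrays are background-corrected, quantile-normalized intensities.

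Among the genes with higher values with DIDS, Iah1, an esterase-like hydrolase, stood at 9.94, 9.90 and 9.77 on the 3 arrays with DIDS and at 9.31 and 9.11 on the chip 2 arrays without. The log2 difference was 0.66 (SE 0.0913, adjusted p = 0.236). On chip 1 the same probe read 9.65, 9.78 and 9.58 without DIDS, so the groups overlapped over all 8 arrays, and a second Iah1 probe differed by 0.07. Coa8, a mitochondrial factor needed for cytochrome c oxidase, differed by 0.62, and Atrnl1, a relative of attractin, by 0.50. Fuom, which interconverts forms of fucose, differed by 0.48, Pter by 0.36 and Slc25a39, a mitochondrial carrier linked to glutathione import, by 0.33. For all 6 the chip 1 arrays without DIDS lay above the chip 2 arrays without DIDS.

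Among the genes with lower values, Tbc1d20, which activates the GTPase activity of Rab proteins, stood at 9.995, 9.989 and 10.21 with DIDS. Without DIDS it stood at 10.79, 10.82 and 10.82 on chip 1 and at 10.78 and 10.62 on chip 2. The 3 arrays with DIDS lay below all 5 without, and the log2 difference was -0.64 (SE 0.0835, adjusted p = 0.236). In the authors' table, by contrast, its columns with DIDS ran from 10.22 to 11.42 and overlapped those without, at 10.77 to 10.97. Zfp36l1, which binds AU-rich elements and speeds the decay of cytokine and growth factor mRNAs, read 12.37, 12.23 and 12.48 with DIDS against 12.86 to 13.05 on the 5 arrays without, a difference of -0.57. Its other probe differed by -0.83. Mapt, which codes for tau, differed by -0.43, Ccdc85a by -0.37 and Diaph1, a formin that nucleates actin, by -0.34, and for Ccdc85a and Diaph1 the groups overlapped once chip 1 was counted.

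**Figure D1:**
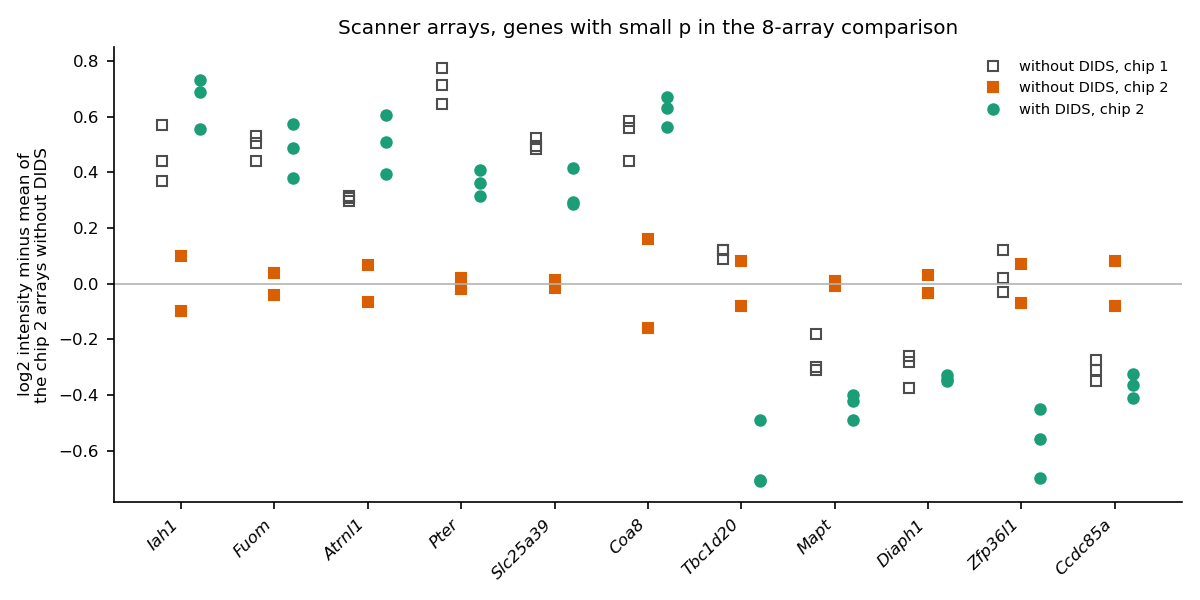
Log2 intensity of 11 genes among those with the smallest p in the 8-array comparison, minus the mean of the chip 2 arrays without DIDS (vertical axis). Each point is 1 array: open squares are the 3 chip 1 arrays without DIDS, filled squares the 2 chip 2 arrays without and circles the 3 arrays with DIDS. For Tbc1d20 and Zfp36l1 both sets of squares lie above the circles, whereas for Pter and Slc25a39 the chip 1 arrays without DIDS lie above the arrays with it.

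In the value table comparison DIDS was set against no DIDS over 12 columns with the solution as a term. Here 192 of 16601 probes passed, 1.16% of those tested: 175 were lower with DIDS (1.05%) and 17 were higher (0.102%). Of the 192, 34 were lower and 1 was higher by 2-fold or more, and the 2 groups did not overlap for 104 of them, where 1.45% of all tested probes did not overlap. Gene names could be given to 63 of the probes, for 54 genes that fell and 6 that rose. The columns with and without DIDS are unevenly spread over the chips, and in the 9 columns with a known chip 1 probe (0.00602%) passed with chip as a term, at an adjusted p of 0.0193. It is a probe without a gene name, scl31450.2_0-S, with a log2 difference of -1.27 over the 12 columns. None of the named genes below passed in that fit, and its log2 differences are given beside the main ones as the chip-term values.

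The largest fall among named genes was in Cxcl1, a chemokine that draws neutrophils through the receptor CXCR2. Its log2 values were 9.89, 9.59 and 8.87 in ACSF + DIDS and 7.33, 7.09 and 6.98 in IS + DIDS. Without DIDS they were 11.26, 11.35 and 12.41 in Control ACSF and 12.91, 12.72 and 10.01 in IS. Each column without DIDS lay above each column with it, the nearest being IS 3 and ACSF + DIDS 1. The log2 difference was -3.49 (SE 0.533, adjusted p = 0.00662), an 11.2-fold lower value, and it was -3.08 in the 9 columns with a chip term. The columns IS + DIDS 2 and IS + DIDS 3 lay close to their dimmest detected probes, at 6.99 and 6.96. The size of the fall in IS + DIDS is therefore uncertain. On the scanner arrays, Cxcl1 differed by -2.79 on chip 2 (adjusted p = 0.313), and the array left out for its mixed titles read 8.52.

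Ptx3 codes for a long pentraxin, a secreted pattern recognition protein of innate immunity. It stood between 7.23 and 7.95 in the 6 columns with DIDS, between 8.66 and 8.98 in IS, and at 10.47, 10.29 and 10.48 in Control ACSF. The groups did not overlap, and the log2 difference was -1.94 (SE 0.192, adjusted p = 0.000297), with -1.92 in the 9 columns with a chip term. Ccl2, a chemokine for monocytes, read 6.23 to 6.74 with DIDS, 6.92 to 7.43 in IS and 8.28, 8.89 and 8.51 in Control ACSF. It was not above background on any of the 4 DIDS arrays with a column of their own, the array with mixed titles included. It was above background on 5 of 5 arrays without. Its fall (adjusted p = 0.00662) was thus at least 1.8-fold in the table's values, a bound taken against the dimmest detected probe. Its chip-term value was -1.19. On the scanner arrays its difference was -0.31 and did not pass (adjusted p = 0.632). The same kind of bound was 1.29-fold over the 8 arrays and 1.18-fold within chip 2. Tlr4, the receptor for bacterial endotoxin and for molecules set free by damaged cells, fell by 0.56 on the log2 scale (adjusted p = 0.0268), with a chip-term value of -0.32.

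**Figure D2:**
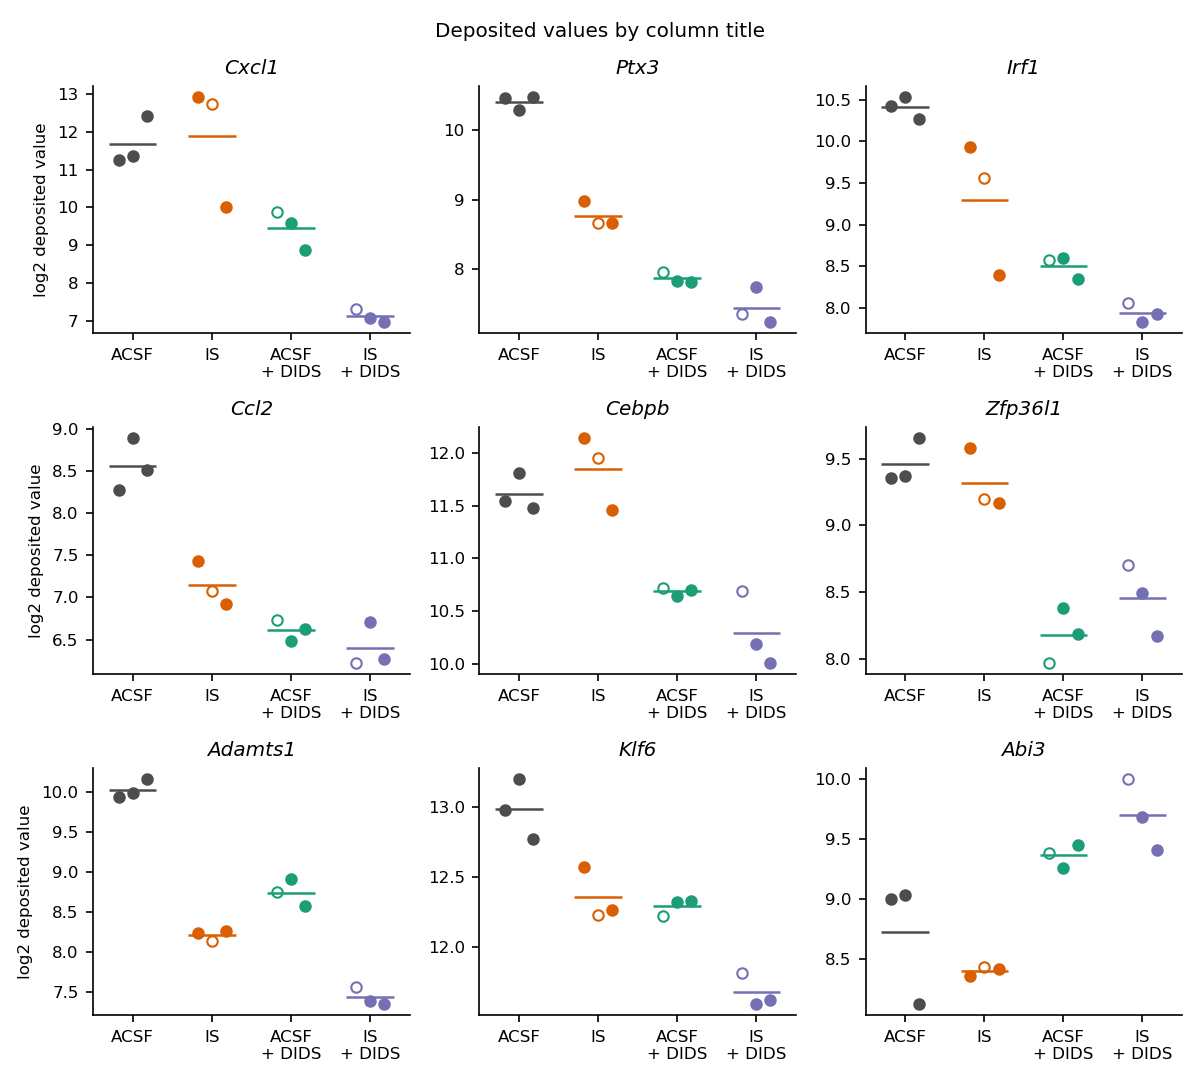
Log2 of the authors' normalized values (vertical axis, scale differs by gene) for 9 genes in the 12 columns, grouped by title, with bars at the group means. Filled points are columns that match a scanner file and open points the 3 that do not. For Cxcl1, Ptx3, Ccl2, Cebpb and Zfp36l1 each point with DIDS lies below each point without, whereas the groups overlap for Adamts1, Klf6 and Irf1, and Abi3 runs the other way.

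Cebpb, the C/EBP-beta transcription factor that acts on acute-phase and cytokine genes, read 10.72, 10.64 and 10.70 in ACSF + DIDS and 10.69, 10.19 and 10.01 in IS + DIDS. Without DIDS it read 11.54, 11.81 and 11.48 in Control ACSF and 12.14, 11.95 and 11.46 in IS. The difference of -1.24 (SE 0.157, adjusted p = 0.00211) was -1.08 with a chip term and -1.33 on the chip 2 scanner arrays. Irf1, the interferon regulatory factor, falls outside the naming rule because its groups overlapped on chip 2 and is named after its values were seen. It fell by 1.63 on the log2 scale (SE 0.208, adjusted p = 0.00223), from 10.27 to 10.53 in Control ACSF and 8.39 to 9.93 in IS to 7.84 to 8.60 with DIDS. Its overlap came from IS 3, which at 8.39 lay below 2 of the columns with DIDS, and the chip-term value was -1.15. IS 3 is also the only IS column known to lie on chip 2 with the arrays with DIDS. On the chip 2 scanner arrays Irf1 read 8.2 on IS 3, within the 7.958, 7.999 and 8.312 with DIDS. Control ACSF 3 read 9.988 there, so the chip 2 difference of -1.004 rests largely on that array.

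Zfp36l1 passed at both of its probes. The brighter probe fell by 0.66 (SE 0.0861, adjusted p = 0.00239) and the dimmer by 1.07 (SE 0.128, adjusted p = 0.0014), and both had groups that did not overlap. Their chip-term values were -0.61 and -1.10. Gbp5, a guanylate-binding protein that interferon-gamma induces, fell with an adjusted p of 0.0066. It was above background on 4 of 5 arrays without DIDS and on 0 of the 4 with it, and the fall was at least 1.23-fold in the table. Its chip-term value was -0.57, and on the scanner arrays its difference was -0.07. There the bound was 1.05-fold over the 8 arrays and 0.998-fold within chip 2, so on chip 2 it shows no fall. Sbno2, a corepressor in the interleukin-10 response of macrophages, fell by 0.72 (adjusted p = 0.0326), and Bcl2, which blocks mitochondrial apoptosis, by 0.70 (adjusted p = 0.0119). Their chip-term values were -0.645 (Sbno2) and -0.63 (Bcl2).

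The promoters of 3 genes with lower values are shown because they hold the NF-kB consensus, which was looked for among the genes that fell. They are the 250 bases before the start of the gene as annotated by RefSeq on GRCm38.p6, 5′ to 3′ on the strand of the gene, with matches to the NF-kB consensus and to the interferon-gamma activated site GAS (TTCNNNGAA) in capitals, both strands searched. Cxcl1 lies at chr5:90890995-90891244 on the plus strand, Irf1 at chr11:53769764-53770013 on the plus strand and Gbp5 at chr3:142496684-142496933 on the plus strand.
Cxcl1: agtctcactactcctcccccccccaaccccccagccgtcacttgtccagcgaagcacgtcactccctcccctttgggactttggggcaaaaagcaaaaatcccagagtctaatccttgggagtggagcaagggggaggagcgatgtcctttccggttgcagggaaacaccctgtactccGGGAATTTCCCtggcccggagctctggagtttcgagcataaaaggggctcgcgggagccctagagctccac
Irf1: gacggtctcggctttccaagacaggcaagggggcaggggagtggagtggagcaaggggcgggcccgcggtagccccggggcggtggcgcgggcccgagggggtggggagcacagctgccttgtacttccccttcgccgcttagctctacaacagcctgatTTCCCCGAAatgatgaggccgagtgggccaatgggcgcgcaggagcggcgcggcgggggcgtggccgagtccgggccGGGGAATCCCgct
Gbp5: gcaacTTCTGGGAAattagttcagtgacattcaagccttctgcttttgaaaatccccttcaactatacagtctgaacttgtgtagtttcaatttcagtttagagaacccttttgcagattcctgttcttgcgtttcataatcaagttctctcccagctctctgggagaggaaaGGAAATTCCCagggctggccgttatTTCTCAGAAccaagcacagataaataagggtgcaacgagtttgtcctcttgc

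In Cxcl1 the capitals are 2 overlapping matches to the NF-kB consensus that begin at positions -71 and -70, counted from the start of the gene. In Irf1 they are a GAS match at -90 and an NF-kB match at -13. In Gbp5 they are GAS matches at -245 and -52 and an NF-kB match at -77. Promoters were found for 44 of the 54 genes that fell. Of these, 3 (6.82%) held the NF-kB consensus and 4 (9.09%) GAS, and the shares among the 3526 promoters of all named genes tested were 4.51% and 5.33%, and 3.75% and 7.18% among all 27025 promoters of the table. GAS was also in 2 of the 5 promoters found for genes that rose. Matches to AP-1 (TGANTCA), CRE (TGACGTCA) and the TATA box (TATAAA) were found in 4.55%, 4.55% and 6.82% of the promoters of genes that fell and in 3.94%, 3.06% and 6.38% of all tested. The genes that fell spanned a median of 50.2 kb in the genome and had a promoter GC content of 67.2%, the 6 that rose 12.4 kb and 52%, and all named genes tested 26 kb and 61.7%.

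The naming rule picks 4 more falls. Zfhx3, a large homeobox protein, fell by 0.90 (adjusted p = 0.0431) with groups that overlapped through ACSF + DIDS 3. Maml2, a coactivator of Notch signalling, fell by 0.78 (adjusted p = 0.0151), and Spata13, a guanine nucleotide exchange factor, by 0.71 (adjusted p = 0.0066). Sox6, a transcription factor of interneurons and the oligodendrocyte lineage, fell at 1 probe (adjusted p = 0.0297), from 7.49 to 7.99 without DIDS to 6.51 to 7.34 with it. That probe was above background on 5 of 5 scanner arrays without DIDS but on only 1 of 3 with it, so the size of the fall is uncertain, and the other Sox6 probe differed by -0.31 and did not pass. The chip-term values were -0.74 for Zfhx3, -0.59 for Maml2, -0.58 for Spata13 and -0.57 for Sox6.

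Rises were fewer and smaller. Abi3, an adaptor of the WAVE actin-regulating complex that microglia express, read 9.26 to 9.45 in ACSF + DIDS and 9.41 to 9.996 in IS + DIDS, against 8.13 to 9.03 in Control ACSF and 8.36 to 8.43 in IS. The log2 difference was 0.97 (SE 0.17, adjusted p = 0.0144), with 1.18 under a chip term and 0.92 on the chip 2 scanner arrays. Atp6v0c, the proteolipid ring subunit of the vacuolar proton pump, rose by 0.45 (adjusted p = 0.0433) and Psma5, a ring subunit of the 20S proteasome core, by 0.39 (adjusted p = 0.0441). Ftsj1, a tRNA methyltransferase, rose by 0.38 and Snu13, a protein of small nucleolar and spliceosomal particles, by 0.33, both at an adjusted p of 0.0342. For these 5 the groups did not overlap. Msantd1 rose by 0.58 (adjusted p = 0.0273), with groups that overlapped. The chip-term values were 0.32 for Atp6v0c, 0.33 for Psma5, 0.47 for Ftsj1, 0.37 for Snu13 and 0.58 for Msantd1.

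In the value table comparison, leaving out 1 column at a time moved the number of passing probes between 85 (without IS 1) and 311 (without Control ACSF 3), and 78 of the 192 passed each time, Cxcl1, Ptx3, Irf1 and Ccl2 among them. The rises Atp6v0c, Psma5, Ftsj1, Snu13 and Msantd1 and the falls Zfhx3, Sbno2 and Sox6 missed the threshold in at least 1 fit. Their highest adjusted p in limma ran from 0.0755 (Msantd1) to 0.13 (Psma5). Without IS + DIDS 1, the column that stood apart, 256 probes passed.

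The 7 columns that share no array with the 5 chip 2 arrays of the 8-array comparison allow the same question to be put to other hybridizations: ACSF + DIDS 1, ACSF + DIDS 3 and IS + DIDS 1 against Control ACSF 1, Control ACSF 2, IS 1 and IS 2. In these columns 70 probes passed (0.422%), 66 lower with DIDS (0.398%) and 4 higher (0.0241%), and 14.1% of all probes had an unadjusted p under 0.05. On the 5 chip 2 arrays, 64 of the 70 had the same sign, 60 of the 66 lower and 4 of the 4 higher, where 55.3% of all probes had the same sign, and 24 also had an unadjusted p under 0.05 there, where 11.7% of all probes did. The columns and the arrays are separate measurements, but 3 of the 4 columns without DIDS lie on chip 1. The remaining one, IS 2, has no known chip and correlated best with the chip 1 array Control ACSF 1 (0.993006). With DIDS, ACSF + DIDS 3 lies on chip 2, and ACSF + DIDS 1 correlated best with the chip 2 array ACSF + DIDS 2 (0.994766). Chip and DIDS therefore cannot be told apart within these 7 columns. Ptx3 fell by 2.09 in the 7 columns (adjusted p = 0.00657) and differed by -1.40 on chip 2. Cebpb fell by 1.12 (adjusted p = 0.0163) and differed by -1.33 on chip 2, and Irf1 fell by 1.89 (adjusted p = 0.00113) and differed by -1.004. For Irf1 the chip 2 groups overlapped, as IS 3 lay within the range of the arrays with DIDS. Cxcl1 differed by -3.35 in the 7 columns and missed the threshold (adjusted p = 0.0748). The genes with the smallest p on the 8 arrays fared differently: of the 100 probes with the smallest p there, 54 had the same sign in the 7 columns, close to the 55.3% of all probes.

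**Figure D3:**
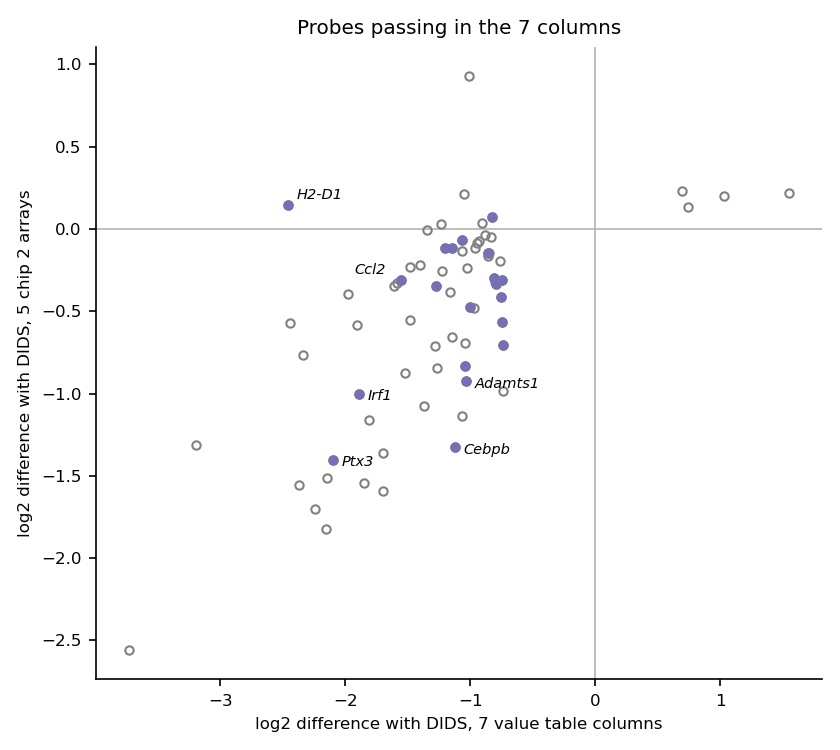
The 70 probes that passed in the 7 value table columns that share no array with the chip 2 arrays, with their log2 difference in those columns (horizontal axis) and on the 5 chip 2 arrays (vertical axis). Filled points have a gene name. Points in the lower left and upper right, 64 of 70, have the same sign in both, and H2-D1 is the named gene with the largest fall in the columns and no fall on chip 2.

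By pathway, the genes of cytokines, chemokines and innate inflammation had the lowest median, among lists chosen with earlier results of these data known. Of the 26 genes listed there, 8 were measured. All 8 measured members of that list were lower with DIDS, 4 of them past the threshold (Cxcl1, Ptx3, Ccl2 and Tlr4) and 0 higher, and their median log2 difference was -1.64, where the median over all 4387 named genes was 0.01 and, counted in the same way with the brightest probe of each gene, 6 rose and 50 fell. The members that did not pass were Ccrl2 at -2.63 (adjusted p = 0.0611), Cxcl2 (adjusted p = 0.0954), Ptgs2 at -1.11 and Vcam1 at -0.37. Cxcl2 was not above background on any of the 4 DIDS arrays, and its mean was at least 2.46-fold lower with DIDS. Its groups overlapped, with IS 3 at 6.36 and ACSF + DIDS 2 at 6.63, and on the 8 arrays it differed by -0.31. Ptgs2 was not above background in Control ACSF or IS + DIDS. With Ccl2 and Cxcl2 at their bounds the median of the list was -1.21, and with a chip term in the 9 columns it was -1.25. On the 8 scanner arrays 0 of the 8 passed, and the median was -0.37, or -1.225 without background correction. Among immediate early and activity-regulated genes 6 of 8 were lower, with a median of -0.59. Of these, Klf6, a zinc-finger transcription factor, passed (a fall of 0.69, SE 0.0915, adjusted p = 0.00277, chip-term value -0.55). Of the 5 measured matrix proteases, inhibitors and matricellular proteins, Adamts1, a protease that cuts proteoglycans of the extracellular matrix, fell by 1.03 (SE 0.106, adjusted p = 0.00033), with a chip-term value of -1.16. Adamts1 read 9.94 to 10.16 in Control ACSF, 8.14 to 8.26 in IS, 8.57 to 8.91 in ACSF + DIDS and 7.35 to 7.56 in IS + DIDS, so its groups overlap unless the solution is taken into account. Timp3, an inhibitor of such proteases, differed by -0.47 at its brighter probe and did not pass there (adjusted p = 0.121). Its dimmer probe fell by 0.56 (adjusted p = 0.0418), with a chip-term value of -0.34.

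The targets of DIDS themselves gave no call. Of 49 listed genes for chloride and bicarbonate transport and anion channels, 12 were measured, 4 higher and 8 lower with a median of -0.04, and 0 passed. Slc4a4, the electrogenic sodium bicarbonate cotransporter, differed by -0.65 (adjusted p = 0.216) and Clic4, an intracellular chloride channel protein, by -0.54 (adjusted p = 0.146, and 0.049 without the column IS + DIDS 1). Slc4a2 and Slc4a3, anion exchangers of the family that DIDS blocks, differed by 0.04 and -0.02.

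Of all 4387 named genes, 2333 were higher with DIDS in the table. Of 17 glycolysis and hypoxia genes 15 were higher with DIDS, with a median of 0.14, and of 41 genes of oxidative phosphorylation 38 were, with a median of 0.08. With a chip term in the 9 columns these medians were 0.02 and 0.06, and on the 8 scanner arrays, where 12 of the 17 and 26 of the 41 were higher, both were 0.03. In neither list did a gene pass. Eno1 (0.30, adjusted p = 0.0894), Gpi1 (0.32, adjusted p = 0.093) and Ndufb2 (0.35, adjusted p = 0.0685) came closest. Of 13 transcription factors and nuclear receptors 11 were lower, with a median of -0.27 and 0 past the threshold. NRF2 targets (9 measured), heat shock genes (9) and cholesterol genes (11) also gave 0 calls, with medians of -0.04, -0.02 and 0.00.

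Of the cell type markers 0 passed. For microglia, 4 of 12 listed markers were measured, their summed value ran from 5751 to 10589 with DIDS and from 5878 to 8405 without, and Csf1r, C1qa and C1qb differed by 0.24, -0.03 and 0.09. The 4 measured astrocyte markers summed to 25113 to 37654 with DIDS and 31295 to 38458 without, and the 8 neuron markers to 16494 to 24515 and 18546 to 22342. The 4 oligodendrocyte lineage markers summed to 11086 to 16908 with DIDS and 12005 to 15648 without. Of the markers of vessels and meninges only Dcn was detected, at 2383 to 5078 with DIDS and 1771 to 2565 without (adjusted p = 0.137), and the named red blood cell probes were below the detection limit. The part of these shifts in the falls above was not tested.

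**Figure D4:**
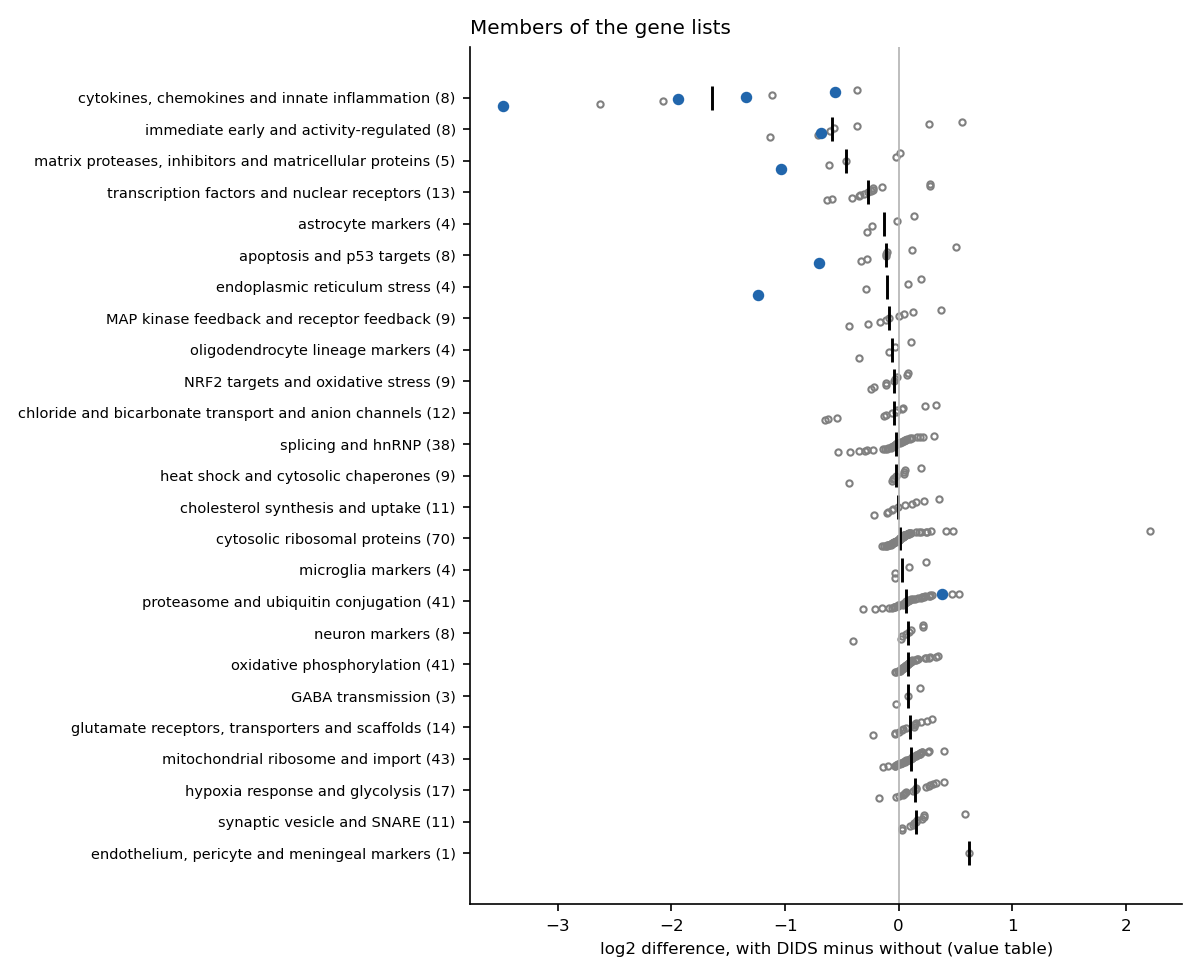
Log2 difference with DIDS minus without in the value table comparison for each measured member of 25 gene lists (horizontal axis), with the number measured in brackets. Filled points passed the threshold, open points did not, and bars mark the medians. Cytokines, chemokines and innate inflammation have the lowest median, at -1.64, among lists chosen with earlier results of these data known.

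Whether the DIDS difference depended on the solution was tested with an interaction term over the 12 columns, also chosen after the data were seen. The interaction passed for 86 probes (0.518%): for 56 the DIDS difference was more negative in IS than in ACSF (0.337%) and for 30 it was less so (0.181%). With chip as a term in the 9 columns with a known chip, 84 probes passed. Of the 10 genes described below, Errfi1, Ptx3 and Homer2 did not pass with the chip term.

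Klf4, a zinc-finger transcription factor induced within the hour by many stimuli, read 8.15, 7.995 and 8.64 in Control ACSF and 9.31, 9.41 and 9.13 in IS. With DIDS it read 8.79, 9.01 and 8.53 in ACSF and 6.61, 6.42 and 6.45 in IS, where it was not above background on either scanner array. The interaction was -3.31 on the log2 scale (SE 0.24, adjusted p = 5.06e-05), and -3.26 with a chip term (adjusted p = 0.00417). In IS alone, the value without DIDS was at least 4.87-fold that with DIDS. A second Klf4 probe had a smaller interaction of -1.70 (adjusted p = 0.0235), with a DIDS difference of -1.37 in IS.

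Junb, a subunit of the transcription factor AP-1, had a mean of 11.20 in Control ACSF, 11.59 in IS and 11.40 in ACSF + DIDS, but 9.96 in IS + DIDS. Its columns in IS + DIDS read 10.53, 9.74 and 9.61, and those in IS 11.85, 11.73 and 11.19. The interaction was -1.84 (SE 0.316, adjusted p = 0.0235). Ccn1, a matricellular protein of the immediate early class, read 10.50, 10.34 and 10.74 in IS and between 8.94 and 9.38 in the other 9 columns. Its interaction was -1.48 (SE 0.187, adjusted p = 0.0037). The order of groups thus differed between these genes: in IS + DIDS Junb lay below each ACSF column and Ccn1 close to them.

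Ptgs2, the inducible cyclooxygenase, read 10.16, 10.23 and 8.14 in IS, 6.62 to 6.99 in Control ACSF, 7.40 to 7.76 in ACSF + DIDS and 6.43 to 6.63 in IS + DIDS. DIDS thus went with higher values in ACSF, where none of the 3 Control ACSF arrays was above background, and with lower values in IS, at least 5.69-fold, with no overlap in either solution (interaction -3.78, SE 0.579, adjusted p = 0.0115). Ccrl2, a chemokine-binding receptor on activated glia and leukocytes, read 12.66, 12.70 and 10.51 in IS and 6.97 to 8.23 in the other 9 columns. In IS its mean was 24.1-fold lower with DIDS, and the interaction was -3.92 (SE 0.659, adjusted p = 0.0213). The columns IS + DIDS 2 and IS + DIDS 3, at 7.12 and 6.97, lay close to their dimmest detected probes, at 6.99 and 6.96. The size of this fold is therefore uncertain. IS 3 was the lowest IS column for Ptgs2, Ccrl2, Cxcl1 and Cxcl2, the last reading 9.91, 10.34 and 6.36 in the 3 IS columns. Of these 3 columns, only IS 3 is known to lie on chip 2 with the arrays with DIDS.

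Nr4a2, an orphan nuclear receptor of the immediate early class, read 10.96, 11.08 and 10.56 in ACSF + DIDS, above each of the other columns, and 8.50 to 9.37 in IS + DIDS. Its interaction was -2.69 (SE 0.297, adjusted p = 0.00156). Errfi1, a feedback inhibitor of the EGF receptor, was likewise highest in ACSF + DIDS, with a difference of 0.91 there and -0.16 in IS (interaction -1.07, SE 0.16, adjusted p = 0.00902, and 0.0575 with the chip term). Rora, a nuclear receptor of the clock, differed by -0.10 in ACSF and -1.15 in IS (interaction adjusted p = 0.0235), and Homer2, a postsynaptic scaffold, by 0.18 and -0.64 (adjusted p = 0.049, and 0.0788 with the chip term).

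Ptx3 ran the other way. Its difference was -2.55 in ACSF, where the level without DIDS was high, and -1.33 in IS, an interaction of 1.22 (SE 0.199, adjusted p = 0.0179, and 0.0702 with the chip term). For Cxcl1 (-2.22 in ACSF, -4.75 in IS) and Ccl2 (-1.95 and -0.74) the interaction did not pass, with adjusted p of 0.296 and 0.0726, and Klf6 differed by -0.69 and -0.68. Each of these interactions was refitted with every column left out in turn. Over the 12 columns, Klf4, Nr4a2, Ccn1, Errfi1 and Ptgs2 passed each time. Ptx3, Ccrl2, Junb, Rora and Homer2 did not pass in several of these fits. Their highest adjusted p was 0.0672 for Ptx3, 0.0754 for Ccrl2, 0.0797 for Junb and 0.145 for Homer2, each without Control ACSF 1, and 0.074 for Rora without ACSF + DIDS 2, the column whose description names IS. Without that column 39 probes passed in all, and without Control ACSF 1 there were 40.

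**Figure D5:**
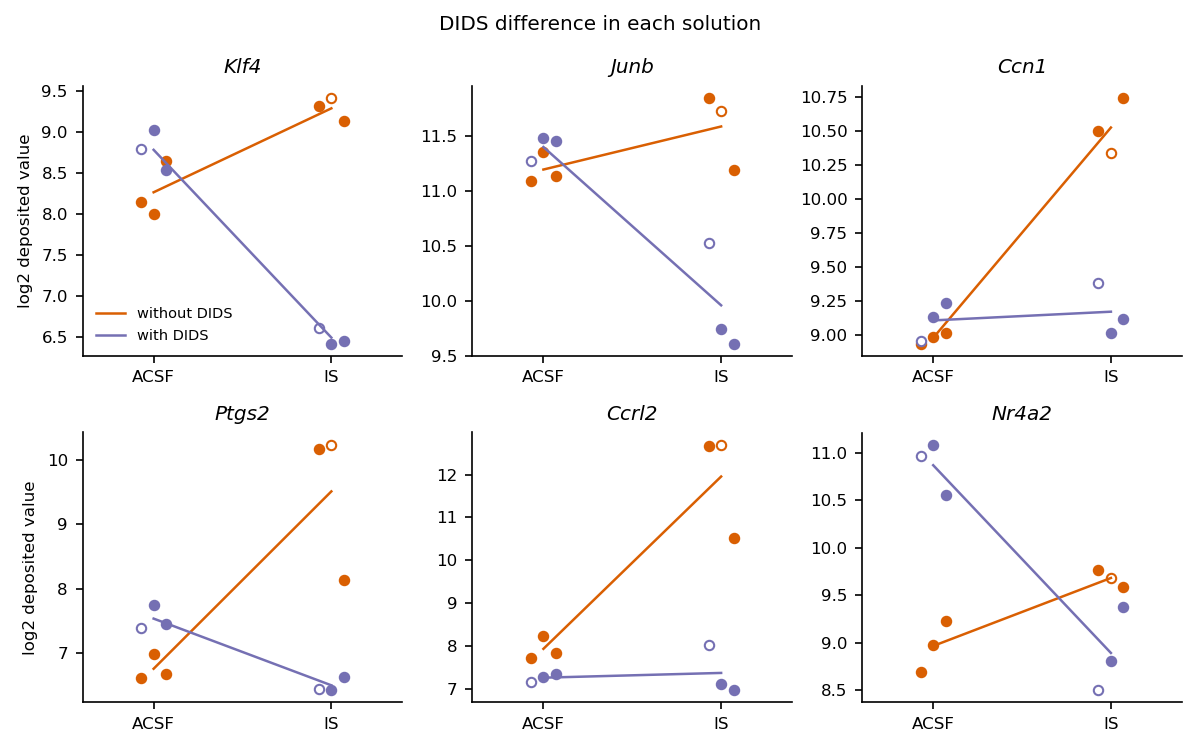
Log2 of the authors' normalized values (vertical axis, scale differs by gene) of 6 genes in ACSF and IS, without DIDS and with DIDS. Points are columns, open where no scanner file matches, and lines join the group means. In IS, Klf4, Junb, Ccn1, Ptgs2 and Ccrl2 lie below the columns without DIDS in each column with it, and Nr4a2 is highest in ACSF + DIDS.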

How the data were processed

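Total RNA of 12 samples was measured on Illumina bead arrays. Per the file headers, the deposited scanner files come from BeadStudio 2.3.47 (the submitters' processing notes name 2.0) and give, for each of 46628 probes, an intensity averaged over beads, not normalized, a detection score and a bead number, a median of 35 to 36 per array. The authors' deposited value table gives normalized intensity on a linear scale, with column medians of 80.6 to 82.5, by a method not given in the sources used here. Identical files were counted once.

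Scanner intensities were background-corrected and quantile-normalized with neqc (offset 16, limma 3.58.1, R 4.3.3). A probe was kept where its detection score exceeded 0.99 on 3 or more of the 8 arrays, and log2 values were fitted with DIDS and chip as terms (lmFit, eBayes, Benjamini-Hochberg adjustment over all probes, threshold 0.05). The value table was fitted on the log2 scale with DIDS and solution. These fits, added after the data were seen, include the 9 columns matched to a scanner file, 7 columns sharing no array with chip 2 of the 8-array fit, and an interaction term. The number of arrays limits the precision.

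The padded number in a probe name was read as a gene number and matched to RefSeq genes (GRCm38.p6): 9796 probes were named so, 9 by accession, and 36823 stayed unnamed. As a check, 81.1% of such numbers are in the reference, against 45.9% after adding 1, and 86.5% of ribosomal protein probes but 0.583% of olfactory receptor probes were detected. Named genes had to pass and lie on one side on chip 2: the 12 largest rises and falls, filled to 6 by smallest p where fewer passed, plus up to 3 per gene list. A gene that this rule picks is not reported here. The interaction genes and Irf1 fall outside that rule and were chosen after their values were seen. The members and lists were chosen with earlier results of these data known. In a simulation 200 probes were changed together, by 0.5, 1 or 2 on the log2 scale. Of the differences of 1, the 8-array fit over 16607 probes recovered 83.6% and the value table fit over 16601 probes 92.5%. These rates hold for that mix. On the measured arrays Cebpb, at -1.33 (SE 0.251), did not pass in the limma fit (adjusted p = 0.245). The 0 calls there thus do not show that differences of 1 are absent. Alternatives covered background correction, normalization, filters, blocks and single arrays left out.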

Additional observations from a re-analysis of the deposited data

Results flagged for a closer look

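The DIDS difference in IS minus that in ACSF passed the test of the interaction for 10 of the 120 genes looked at. Of all tested probes 0.518% passed, and the genes looked at were chosen in part with results of these data known. On the log2 scale it was -3.92 for Ccrl2, -3.78 for Ptgs2, -3.31 for Klf4, -2.69 for Nr4a2, -1.84 for Junb, -1.48 for Ccn1, -1.07 for Errfi1, -1.05 for Rora, -0.82 for Homer2 and 1.22 for Ptx3. With chip as a term in the 9 matched columns Errfi1, Ptx3 and Homer2 did not pass, with adjusted p of 0.0575, 0.0702 and 0.0788 (limma). For Ptgs2 and Nr4a2 each column with DIDS also lay above the columns without it in ACSF and below them in IS.

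Single columns lay far from the rest of their group in 12 of 252 groups looked at, and chance gives about 1 in 20. With DIDS these were Diaph1 in ACSF + DIDS 1 (8.52, nearest 8.20), Ccdc85a in ACSF + DIDS 3 (8.17), Ndufb2 in ACSF + DIDS 3 (8.73), Clcn4 in IS + DIDS 1 (9.28), Ccrl2 in IS + DIDS 1 (8.02, nearest 7.35) and Rps12 in ACSF + DIDS 1 (13.31). Without DIDS they were Homer2 in Control ACSF 3 (10.74), Mobp in Control ACSF 1 (11.59), Ube2z in Control ACSF 2 (9.06), H2-D1 in Control ACSF 3 (7.36, nearest 8.91) and Rps12 in Control ACSF 2 (2.56, nearest 13.07). On the scanner arrays without DIDS, Tbc1d20 was lowest on IS 3 (10.62, nearest 10.78).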

How the results depend on the processing

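For DIDS against no DIDS on the 8 arrays, the count of passing probes stayed at 0 under all alternatives except a replicate block in place of the chip block (402 probes), single arrays left out (0 to 22, with 22 without ACSF + DIDS 2 and 5 without Control ACSF 3) and the value table with 12 columns (192). With the replicate block the log2 difference turned to -0.0104 for Fuom, -0.35 for Pter and -0.17 for Slc25a39, without a chip block to -0.067 for Pter, and in the value table to -0.034 for Atrnl1, -0.16 for Pter and -0.00486 for Slc25a39. Whether the numbers in the titles pair the samples could not be settled from the values. In the value table, 18 same-number pairs correlated at -0.323 to 0.427 in their deviations from group means, and 10 exceeded 0.1. Pairs of other numbers ran from -0.333 to 0.406, and 6 of 12 columns correlated best with their own number. In the value table comparison the count of 192 was 199 with a replicate block, 76 with no solution term, 1 in 9 columns with a chip block, 70 in the 7 separate columns, 1326 with array weights, 463 at an adjusted p under 0.1, 108 at 1.5-fold or more and 85 to 311 with single columns left out. For the interaction of DIDS and solution the count of 86 was 93 with a replicate block and 39 to 100 with single columns left out. In each case the cause was not tested. Chip and DIDS overlap in part, and signal near background limits the dimmest genes.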

Other observations

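Further named genes had an interaction of DIDS and solution past the threshold, chosen after their values were seen. Arrdc3, an arrestin-domain protein that acts on receptor trafficking, had an interaction of -1.60 on the log2 scale, and Il4i1, an amino acid oxidase of immune cells, one of 1.57.

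H2-D1, a classical major histocompatibility class I heavy chain, fell by 2.46 in the 7 columns that share no array with chip 2 (adjusted p = 0.00112) and differed by 0.14 on the chip 2 arrays. Over the 12 columns it ran from 6.33 to 10.34, with high and low columns on both sides of the comparison, and did not pass (adjusted p = 0.308). Rps12, a ribosomal protein, stood at 2.56 in Control ACSF 2 and between 13.07 and 14.09 in the other 11 columns.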
